A study of Mus musculus with 6 samples.

Results

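The vacuolar ATPase (V-ATPase) is assembled from subunits that in several positions exist both as a ubiquitous form and as a specialised form made by few cell types. Chromatin accessibility was described at 9 of these genes in basal cells of the mouse olfactory epithelium before and 24 h after injury. They are 4 specialised genes (Atp6v0a4, Atp6v1b1, Atp6v1c2 and Atp6v0d2) and 5 ubiquitous paralogues (Atp6v0a1, Atp6v0a2, Atp6v1b2, Atp6v1c1 and Atp6v0d1), out of 21938 protein-coding genes. The 9 genes were chosen by name, with their cut sites around starts and over gene bodies in these same libraries already known. Their levels and their differences after injury are therefore given as a description, with no p.

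The series holds 6 single-cell ATAC-seq libraries, which count where a transposase cuts open DNA. All cells came from the dorsal olfactory epithelium of mice with the genotype Krt5CreER; Rosa26 LSL-YFP/LSL-YFP, in which the keratin 5 promoter drives an inducible Cre recombinase that switches on YFP in basal cells and in what descends from them. YFP+ cells that excluded propidium iodide were sorted from 3 uninjured libraries labelled control and from 3 libraries taken 24 h after an intraperitoneal injection of methimazole, a drug that destroys olfactory neurons and sustentacular cells. Mice were 8 weeks old for replicate 1, 6 weeks for replicate 2 and 6 to 7 weeks for replicate 3 of both groups. The labels name the replicates as biological and do not give the number of animals in a library, so the errors below are those between libraries.

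Barcodes with at least 2000 fragments numbered 420 to 1338 per library and gave 14825320 to 44875242 cut sites. All 8 markers of the labelled type, the horizontal basal cell, had cut sites in every library, with a summed level of 618 to 713 CPM (cut sites scaled to the same total in every library) in uninjured and 525 to 591 in injured libraries. The 7 markers of activated basal cells summed to 47.9 to 72.0 in uninjured and 88.7 to 129 in injured libraries, and the 6 sustentacular markers to 47.0 to 81.4 and 35.0 to 37.4. Clusters named as basal held 73.6% to 88.4% of cells in uninjured and 60.6% to 94.3% in injured libraries, and the third injured library also held 14.2% immature and 12.3% mature neuron-like cells. The third uninjured and the third injured libraries shared 34 barcodes, of which the shallower copy was a median of 2.65% as deep as the deeper one, with 97.5% of its cut sites found there too; other pairs of libraries shared at most 4. In the second injured library a single barcode held 14.7% of the fragments of the barcodes used, with 12.9% of its cut sites in open tiles. All start windows and tiles were therefore also fitted without shared barcodes and without barcodes that have under 20% of cut sites in open tiles. The same 3 start windows of the 9 genes were called under both settings.

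The V-ATPase pumps protons into lysosomes and other compartments, and in some epithelial cells across the plasma membrane. Its V1 sector splits ATP in the cytosol and its V0 sector carries protons through the membrane. The a subunits (Atp6v0a1, Atp6v0a2, Atp6v0a4) take part in proton transfer and decide where the pump goes, the B subunits (Atp6v1b1, Atp6v1b2) belong to the ring that binds ATP, the C subunits (Atp6v1c1, Atp6v1c2) link both sectors in the stator and the d subunits (Atp6v0d1, Atp6v0d2) join the membrane ring to the central stalk. Atp6v0a4 and Atp6v1b1 are best known from acid-secreting intercalated cells of the kidney, Atp6v0d2 from osteoclasts and Atp6v1c2 from kidney and lung. Atp6v1b1 is also known from apical cells of the olfactory epithelium.

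DNA of some starts and of called tiles is shown first, from GRCm38 and on the strand of each gene. The RefSeq promoter table (GRCm38.p6) held 5 of the 9 genes (Atp6v0a4, Atp6v1b1, Atp6v1c2, Atp6v0a1 and Atp6v0d1); the others are Atp6v0d2, Atp6v0a2, Atp6v1b2 and Atp6v1c1. The 250 bases before the start are printed for the 3 specialised genes it held, of which only Atp6v0a4 was called different at this start, and for Atp6v0d1, the ubiquitous gene with the highest level: Atp6v0a4 at chr6:38124587-38124836 on the minus strand, Atp6v1b1 at chr6:83742767-83743016 on the plus strand, Atp6v1c2 at chr12:17324731-17324980 on the minus strand and Atp6v0d1 at chr8:105566065-105566314 on the minus strand. Capitals mark a motif match, counted from 1 at the 5′ end: GGAATG (TEAD) at bases 195 to 200 in Atp6v0a4, TGTTTAC (forkhead) at bases 153 to 159 in Atp6v1b1 and GGGCGG (GC box) at bases 230 to 235 in Atp6v1c2.
Atp6v0a4 promoter: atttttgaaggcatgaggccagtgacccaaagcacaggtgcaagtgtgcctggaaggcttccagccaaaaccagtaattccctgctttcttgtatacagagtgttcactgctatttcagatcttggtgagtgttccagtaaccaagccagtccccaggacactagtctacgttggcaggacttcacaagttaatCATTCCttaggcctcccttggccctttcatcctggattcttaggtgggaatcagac
Atp6v1b1 promoter: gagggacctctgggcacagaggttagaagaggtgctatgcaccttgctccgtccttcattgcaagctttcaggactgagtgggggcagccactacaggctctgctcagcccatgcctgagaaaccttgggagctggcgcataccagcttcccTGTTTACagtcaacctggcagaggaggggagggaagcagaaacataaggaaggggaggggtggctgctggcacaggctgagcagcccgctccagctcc
Atp6v1c2 promoter: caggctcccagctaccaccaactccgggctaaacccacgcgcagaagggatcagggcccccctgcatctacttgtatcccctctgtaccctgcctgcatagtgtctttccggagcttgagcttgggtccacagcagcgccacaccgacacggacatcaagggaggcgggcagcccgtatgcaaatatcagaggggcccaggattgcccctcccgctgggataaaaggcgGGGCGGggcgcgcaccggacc
Atp6v0d1 promoter: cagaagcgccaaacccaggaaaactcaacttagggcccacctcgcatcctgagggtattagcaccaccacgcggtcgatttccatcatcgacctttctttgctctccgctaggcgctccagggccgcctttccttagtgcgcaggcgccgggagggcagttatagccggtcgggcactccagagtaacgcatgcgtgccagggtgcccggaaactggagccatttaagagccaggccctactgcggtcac

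The promoters differed in base composition. The Atp6v0a4 stretch held 1 CpG, 0.0685 of the number its C and G content predicts, and the Atp6v1b1 stretch held 3, 0.137 of the predicted number. Atp6v1c2 had 15 CpG at 0.59 of the predicted number and Atp6v0d1 had 18 at 0.795, where the median of 32851 promoters was 0.373. Atp6v0a4 and Atp6v1b1 were thus below that median and Atp6v1c2 and Atp6v0d1 above it. The stretch of the ubiquitous Atp6v0a1, not printed, held 4 CpG at 0.339 of the predicted number and was also below the median.

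For 5 of the genes, 300 bases with the most cut sites in a 500 bp tile are printed because that tile was called different after injury. Of each gene and direction it is the most open called tile outside the main start that holds no annotated UTR. The tile 41335 bp into Atp6v0a4 was higher and the tile 13335 bp into it was lower, shown at chr6:38083201-38083500 and chr6:38111039-38111338, minus strand. The tile 4604 bp into Atp6v1b2 was higher, at chr8:69093021-69093320, plus strand. In Atp6v0a1 a tile 9298 bp into the gene was lower and one 10298 bp into it was higher, shown at chr11:101018686-101018985 and chr11:101019532-101019831, plus strand. The tile 29108 bp into Atp6v1c2 was lower, at chr12:17300004-17300303, minus strand, as was the tile 1760 bp into Atp6v1b1, at chr6:83744616-83744915, plus strand.
Atp6v0a4 tile 41335: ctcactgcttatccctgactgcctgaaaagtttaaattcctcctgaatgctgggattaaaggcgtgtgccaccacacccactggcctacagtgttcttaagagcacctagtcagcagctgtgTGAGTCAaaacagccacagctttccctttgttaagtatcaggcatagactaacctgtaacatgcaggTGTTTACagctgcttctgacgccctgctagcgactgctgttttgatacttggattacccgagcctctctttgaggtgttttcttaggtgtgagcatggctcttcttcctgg
Atp6v0a4 tile 13335: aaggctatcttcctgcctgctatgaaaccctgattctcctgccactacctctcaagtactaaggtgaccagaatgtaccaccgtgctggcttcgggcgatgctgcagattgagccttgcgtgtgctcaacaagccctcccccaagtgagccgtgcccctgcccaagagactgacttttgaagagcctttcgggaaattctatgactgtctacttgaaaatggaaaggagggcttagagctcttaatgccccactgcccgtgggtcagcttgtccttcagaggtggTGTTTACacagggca
Atp6v1b2 tile 4604: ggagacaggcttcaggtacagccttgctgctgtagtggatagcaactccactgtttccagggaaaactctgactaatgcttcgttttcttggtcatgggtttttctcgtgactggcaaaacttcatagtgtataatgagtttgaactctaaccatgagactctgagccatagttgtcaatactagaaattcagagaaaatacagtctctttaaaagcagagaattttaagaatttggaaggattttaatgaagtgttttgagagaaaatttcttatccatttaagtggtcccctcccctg
Atp6v0a1 tile 10298: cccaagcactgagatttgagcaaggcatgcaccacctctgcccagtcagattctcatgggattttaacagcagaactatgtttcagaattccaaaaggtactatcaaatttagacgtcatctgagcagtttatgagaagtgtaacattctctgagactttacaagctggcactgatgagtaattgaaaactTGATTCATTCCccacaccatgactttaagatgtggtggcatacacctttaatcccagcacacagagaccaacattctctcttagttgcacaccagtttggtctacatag
Atp6v0a1 tile 9298: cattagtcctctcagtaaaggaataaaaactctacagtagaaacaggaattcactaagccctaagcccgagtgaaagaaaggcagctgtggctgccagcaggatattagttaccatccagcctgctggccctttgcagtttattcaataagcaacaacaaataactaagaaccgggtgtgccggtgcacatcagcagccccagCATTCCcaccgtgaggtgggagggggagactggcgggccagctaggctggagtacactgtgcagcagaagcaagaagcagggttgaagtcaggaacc
Atp6v1c2 tile 29108: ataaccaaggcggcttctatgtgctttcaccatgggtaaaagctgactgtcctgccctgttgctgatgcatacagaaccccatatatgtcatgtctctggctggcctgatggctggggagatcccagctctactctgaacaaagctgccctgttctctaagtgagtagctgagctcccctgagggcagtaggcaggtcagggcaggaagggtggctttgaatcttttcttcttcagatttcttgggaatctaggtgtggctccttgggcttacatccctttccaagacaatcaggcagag
Atp6v1b1 tile 1760: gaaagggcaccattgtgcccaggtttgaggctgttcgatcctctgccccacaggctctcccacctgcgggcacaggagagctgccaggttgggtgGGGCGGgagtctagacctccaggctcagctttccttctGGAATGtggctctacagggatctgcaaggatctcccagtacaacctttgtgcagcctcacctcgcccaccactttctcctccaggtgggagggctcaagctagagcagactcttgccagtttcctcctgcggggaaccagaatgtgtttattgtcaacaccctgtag
Capitals mark TGANTCA (the AP-1 motif) at bases 123 to 129 and TGTTTAC at bases 190 to 196 in the higher Atp6v0a4 tile, and TGTTTAC at bases 286 to 292 in the lower one. The higher Atp6v0a1 tile has TGANTCA at bases 192 to 198, overlapping GGAATG at bases 197 to 202. GGAATG also stands at bases 204 to 209 in the lower Atp6v0a1 tile and at bases 134 to 139 in the Atp6v1b1 tile, which has GGGCGG at bases 96 to 101. The Atp6v1b2 tile and the Atp6v1c2 tile held none of the motifs searched.

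Motifs were searched as exact letters on both strands: the AP-1 letters TGANTCA, the TEAD letters GGAATG, the forkhead letters TGTTTAC, the GC box GGGCGG, the E-box CACGTG, the CLEAR element of lysosomal genes (which contains the E-box), the CCAAT box, the RUNX letters TGTGGTT, the CRE letters TGACGTCA and the p53-family half-site. TGANTCA stood in 6.75% of promoters and 15.9% of the most cut 300 bases of all open tiles, in 56.9% of those called higher and in 3.91% of those called lower after injury. GGAATG stood in 12.6% of promoters and 17.3% of open tiles, TGTTTAC in 3.17% and 4.94%, and GGGCGG in 32.7% and 11.6%. CACGTG stood in 6.02% of promoters and 5.01% of open tiles, the CLEAR element in 0.24% and 0.0613%, CCAAT in 33.8% and 31.9%, TGTGGTT in 4.4% and 7.66%, TGACGTCA in 1.55% and 0.475% and the p53-family half-site in 7.13% and 11.6%. The CLEAR letters were in none of the printed stretches. In the most cut 300 bases of the called tiles of the 9 genes TGANTCA stood in 4 of the 6 higher and 0 of the 11 lower tiles; the higher tiles without it are the printed one of Atp6v1b2 and one 52335 bp into Atp6v0a4. GGAATG stood in 2 of the 6 and 5 of the 11, where 20.7% of all tiles called higher and 19.6% of those called lower held it. GGGCGG stood in 0 of the 6 and 4 of the 11, where the shares were 6.45% and 27.4%.

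Levels at the starts came first. Each gene's windows were the stretches within 1 kb of every annotated start, joined where they overlapped, and the window with the highest level per kb over all 6 libraries was taken as its main start. The 9 genes had 27 such windows, and 22 of them passed the filter on low counts: 13 of 14 of the specialised and 9 of 13 of the ubiquitous genes. In uninjured libraries Atp6v0d1 stood at 17.7 ± 1.21 CPM per kb (SD, n = 3) and Atp6v0a4 at 16.5 ± 1.93, above 91.6% and 89.6% of all genes. The libraries of these 2 genes overlapped, and both lay above Atp6v1b2 at 9.92 ± 0.373 and Atp6v0a2 at 9.52 ± 0.549, which overlapped each other in turn. Atp6v1c1 followed at 7.57 ± 0.732, then Atp6v1c2 at 5.15 ± 0.796 and Atp6v0a1 at 4.57 ± 0.169, whose libraries overlapped. Atp6v1b1 at 1.81 ± 0.704 and Atp6v0d2 at 0.196 ± 0.128 were lowest, each apart from its neighbour. The specialised genes thus lay at both ends of the order: Atp6v0a4 was level with the most open ubiquitous gene, while Atp6v0d2 was above only 24.3% of genes. The windows differ in width, and that of Atp6v0a1, joined from 4 starts, is the widest. With windows of 500 bp either side of starts Atp6v0a1 stood closer to Atp6v0a4, as given below. Its place in the order of either group therefore depends on the window.

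**Figure D1:**
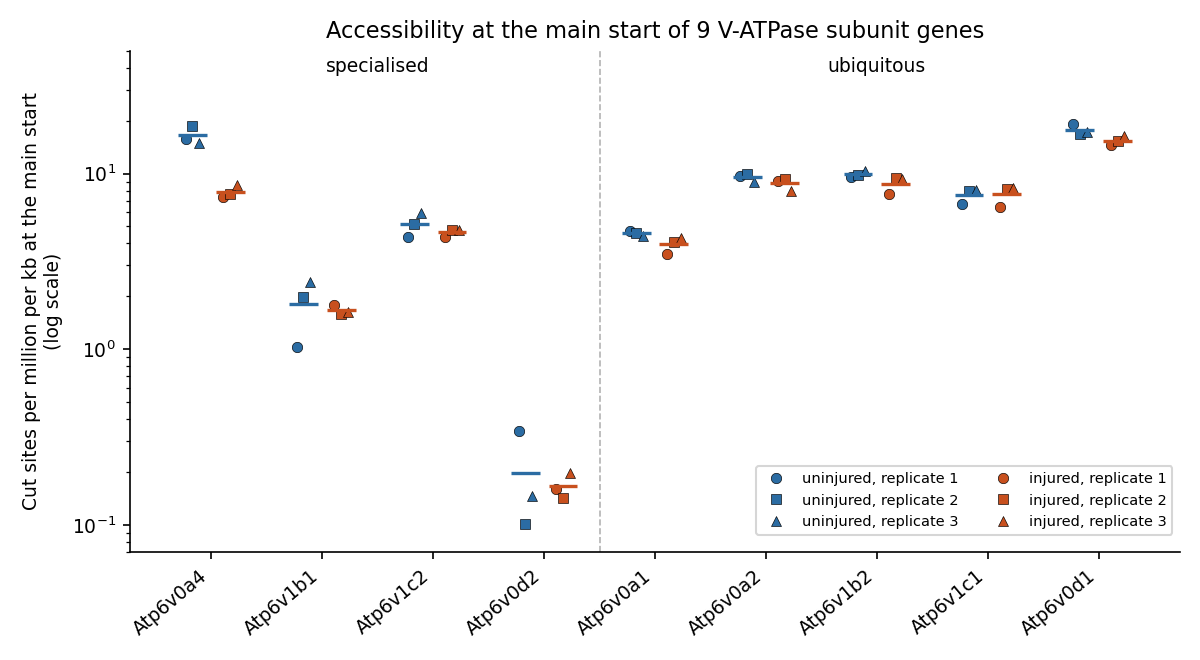
Level in CPM per kb (log axis) at the main start of the 9 genes, with 1 point per library and a bar at the mean of 3 libraries. Atp6v0a4 stands apart from its injured libraries, from 14.997 to 18.7 before and 7.37 to 8.60 after injury, and Atp6v0d2 is lowest in both groups.

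In injured libraries the order kept Atp6v0d1 first, at 15.4 ± 0.928, and Atp6v0d2 last, at 0.166 ± 0.0285. Atp6v0a4 had rank 4 at 7.87 ± 0.648, above 65.3% of genes, and its libraries overlapped those of Atp6v1b2 above it (8.77 ± 1.00) and of Atp6v1c1 below it (7.61 ± 1.03). Atp6v0a2 at 8.78 ± 0.756, Atp6v1c2 at 4.62 ± 0.239, Atp6v0a1 at 3.96 ± 0.422 and Atp6v1b1 at 1.67 ± 0.107 made up the rest.

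Among the a subunits, the main start of Atp6v0a4 (ENSMUSG00000038600.12, gene at chr6:38048483-38124586, minus strand; window chr6:38123489-38125586) had 533, 1350 and 1081 cut sites in the 3 uninjured and 627, 340 and 640 in the 3 injured libraries. Its level was 15.8, 18.7 and 14.997 CPM per kb before and 7.37, 7.63 and 8.60 after injury. Every injured library lay below every uninjured one, and the log2 difference, injured minus uninjured, was -1.07 ± 0.105 (SE). In the 250 bases printed above it was 11.2, 9.28 and 8.73 before and 3.45, 5.09 and 4.06 after injury. In basal-like cells alone the log2 difference in the window was -1.04, without shared barcodes -1.06 and without barcodes under 20% in open tiles -1.03. It ran from -1.14 to -0.97 when single libraries were left out and the window was called under each other scaling, tool, barcode choice and left-out library; over the gene body it was -0.45. The sums of basal, activated and sustentacular markers given above also differed between the groups, and their part in the result beyond these values was not tested. Fewer cells with the start open and fewer cuts per cell cannot be told apart in such sums.

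A second start of Atp6v0a4 went the other way. Window 4 (chr6:38082372-38084372) surrounds the start of a transcript with a retained intron, 41214 bp into the gene, and had 51, 184 and 166 cut sites in uninjured and 594, 222 and 211 in injured libraries. Its level was 1.58, 2.67 and 2.42 CPM per kb before and 7.33, 5.23 and 2.97 after injury, a log2 difference of 1.203 ± 0.305 (SE). The groups did not overlap, with the third injured library nearest to the uninjured ones. The call was lost without any single uninjured library and without the first or the second injured one, and the log2 difference without the first injured library was 0.87. Without shared barcodes it was 1.21 and without barcodes under 20% in open tiles 1.24. The other 4 windows of Atp6v0a4 had levels from 0.172 to 3.65 and log2 differences from -0.36 to 0.12, with overlapping groups.

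The ubiquitous a subunits differed by less between groups. Atp6v0a1 (ENSMUSG00000019302.16, window chr11:101008452-101012821, joined from 4 starts) had levels of 4.71, 4.61 and 4.38 before and 3.49, 4.09 and 4.30 after injury, a log2 difference of -0.21 ± 0.110. Atp6v0a2 (ENSMUSG00000038023.12, window chr5:124627576-124630169) had 9.66, 9.98 and 8.91 before and 9.08, 9.35 and 7.93 after injury, a log2 difference of -0.12 ± 0.0976. The groups of Atp6v0a1 did not overlap, with the third libraries of both groups closest, while those of Atp6v0a2 did; neither window was called. The ratio of Atp6v0a4 to Atp6v0a1 per kb was 3.59 before and 1.99 after injury, with log2 ratios of 1.84 ± 0.150 and 0.99 ± 0.0889 (SD, n = 3 libraries each). With windows of 500 bp either side of the starts these log2 ratios were 0.72 and -0.09; the joined Atp6v0a1 window spans 4 starts. The ratio of Atp6v0a4 to Atp6v0a2 was 1.72 before and 0.896 after injury. Both ratios were lower in all 3 injured than in all 3 uninjured libraries.

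**Figure D2:**
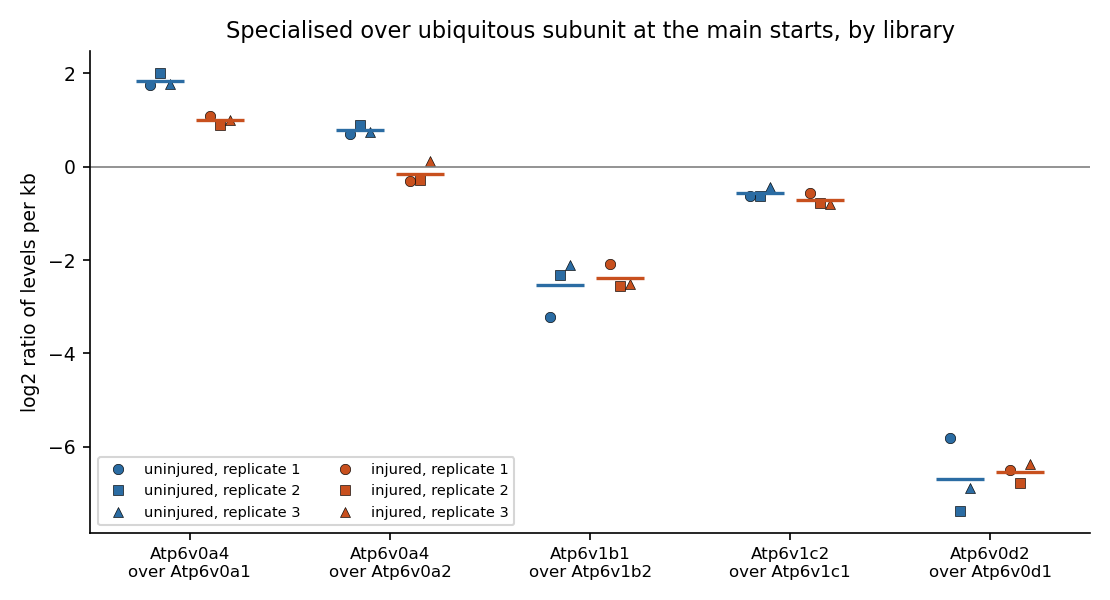
Log2 ratio of the level per kb at the main start, specialised over ubiquitous gene, with 1 point per library and a bar at the mean of each group. The libraries of the 2 groups are apart for Atp6v0a4 over Atp6v0a1 and over Atp6v0a2, and overlap for Atp6v1b1, Atp6v1c2 and Atp6v0d2 over their partners.

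At the B subunits the groups lay close together. Atp6v1b1 (ENSMUSG00000006269.7, window chr6:83741990-83744094) had 35, 144 and 174 cut sites before and 153, 71 and 122 after injury, or 1.03, 1.98 and 2.41 CPM per kb before and 1.79, 1.59 and 1.64 after. The injured libraries lay within the range of the uninjured ones, of which the first was lowest, and the log2 difference was -0.13 ± 0.313. Atp6v1b2 (ENSMUSG00000006273.14, window chr8:69087646-69089789) had 9.58, 9.87 and 10.3 before and 7.61, 9.40 and 9.29 after injury, a log2 difference of -0.18 ± 0.109 with groups that did not overlap. Its window also holds the start of Slc18a1, a vesicular amine transporter gene, 563 bp away on the other strand. The ratio of Atp6v1b1 to Atp6v1b2 was 0.172 before and 0.191 after injury.

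Among the C subunits, Atp6v1c2 (ENSMUSG00000020566.19, gene at chr12:17284721-17329359, minus strand) had 3 start windows with different values. Its main start (window 2, chr12:17323665-17325730) had levels of 4.35, 5.16 and 5.95 before and 4.35, 4.74 and 4.78 after injury, with overlapping groups and a log2 difference of -0.17 ± 0.164. Window 3 (chr12:17307413-17309413), around the start of a shorter protein-coding transcript 20946 bp into the gene, had 217, 533 and 246 cut sites before and 203, 122 and 131 after injury. That was 6.73, 7.72 and 3.58 CPM per kb before and 2.50, 2.87 and 1.85 after, a log2 difference of -1.32 ± 0.273. The groups did not overlap, with the third uninjured library lowest of its group. In the uninjured libraries alone window 3, at 6.01 ± 2.16, had a higher mean than the main start, at 5.15 ± 0.796, with overlapping values; the rank of the gene and its ratio to Atp6v1c1 rest on the main start. In basal-like cells alone the log2 difference was -1.28, without shared barcodes -1.32 and without barcodes under 20% in open tiles -1.29. When a library was left out the value ran from -1.61 to -1.10, and the call was lost without the first or the second library of either group.

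Window 1 of Atp6v1c2 (chr12:17328348-17330359, the first annotated start) stood at 1.69 ± 0.407 before and 1.29 ± 0.198 after injury, a log2 difference of -0.39 ± 0.303 with overlapping groups, which in basal-like cells alone was 0.47. Atp6v1c1 (ENSMUSG00000022295.8, window chr15:38660933-38662988) had 6.73, 7.98 and 8.01 before and 6.42, 8.16 and 8.24 after injury. Its groups overlapped almost fully, with the first library lowest in each, and the log2 difference was -0.0033 ± 0.133, a sign kept in 8 of 17 alternatives. The ratio of Atp6v1c2 to Atp6v1c1 at the main starts was 0.677 before and 0.611 after injury.

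The d subunits were the most unequal pair. Atp6v0d2 (ENSMUSG00000028238.6, window chr4:19921605-19923605) had 11, 7 and 10 cut sites before and 13, 6 and 14 after injury, or 0.341, 0.101 and 0.145 CPM per kb before and 0.160, 0.141 and 0.197 after. With 6 to 14 cut sites in a library its log2 difference of -0.13 ± 0.662 has the largest error of the 9 main starts, and a difference was not detectable at this depth. Atp6v0d1 (ENSMUSG00000013160.7, window chr8:105565047-105567047) had 19.1, 16.8 and 17.3 before and 14.5, 15.4 and 16.3 after injury, a log2 difference of -0.20 ± 0.0851 with groups that did not overlap. The antisense gene Gm38250 starts 277 bp from it. The level at Atp6v0d1 was 103 times that at Atp6v0d2 before and 93.3 times after injury. The log2 ratios of Atp6v0d2 to Atp6v0d1 were -6.69 ± 0.802 and -6.54 ± 0.204 (SD, n = 3 libraries each), from -7.37 to -5.81 in single uninjured libraries. The low counts of Atp6v0d2 limit this ratio.

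The remaining starts were little open. Window 2 of Atp6v0a2 went from 0.068 ± 0.0695 to 0.197 ± 0.0249 CPM per kb and window 2 of Atp6v1b2 from 0.064 ± 0.0239 to 0.173 ± 0.0262, both higher in every injured library but not called, with log2 differences of 1.38 ± 0.7003 and 1.37 ± 0.619. Windows 2 and 3 of Atp6v1b1, window 2 of Atp6v0a1 and window 2 of Atp6v0d1 had means from 0.217 to 0.479 with overlapping groups and no call. The 5 windows that did not pass the filter were 1 of Atp6v0d2, 2 of Atp6v0a1, 1 of Atp6v0a2 and 1 of Atp6v1c1, with means of at most 0.142.

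All 9 main starts had a log2 difference below 0, with a median of -0.17. The median of all 32810 windows tested was 0.03, and 15398 of them were below 0. Those windows include minor starts, and the main starts of all genes were not summarised alone. The sign was kept in 15 of 17 alternatives at Atp6v1b1 and in 16 of 17 at Atp6v1c2 and Atp6v1b2. At Atp6v0d2 it was kept in 14 of 15 and at Atp6v1c1 in 8 of 17. Of the 22 tested windows of the 9 genes 1 was called higher and 2 lower at an adjusted p under 0.05 (edgeR), all 3 in specialised genes. Over all windows 2.84% were called higher and 3.08% lower. Groups without overlap were found at 3 windows that were higher and 5 that were lower, where 13.3% of all windows were higher and 14.7% lower without overlap. These counts stand beside the background as a description, since the genes were chosen with this contrast known. The scaling changed calls in genes of both kinds. With factors taken from 10 kb bins of the genome the median window moved to -0.43, and 1 window of the 9 genes was called higher and 9 lower; the added ones were the main starts of all 5 ubiquitous genes and of Atp6v1c2, and window 2 of Atp6v0a4. With total cut sites the median moved to -0.17, and 1 was called higher and 6 lower; the added ones were the main starts of Atp6v0a1, Atp6v0a2, Atp6v1b2 and Atp6v0d1. Relative to the median window of its own scaling, Atp6v0a4 had the largest negative difference of the 9 main starts.

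**Figure D3:**
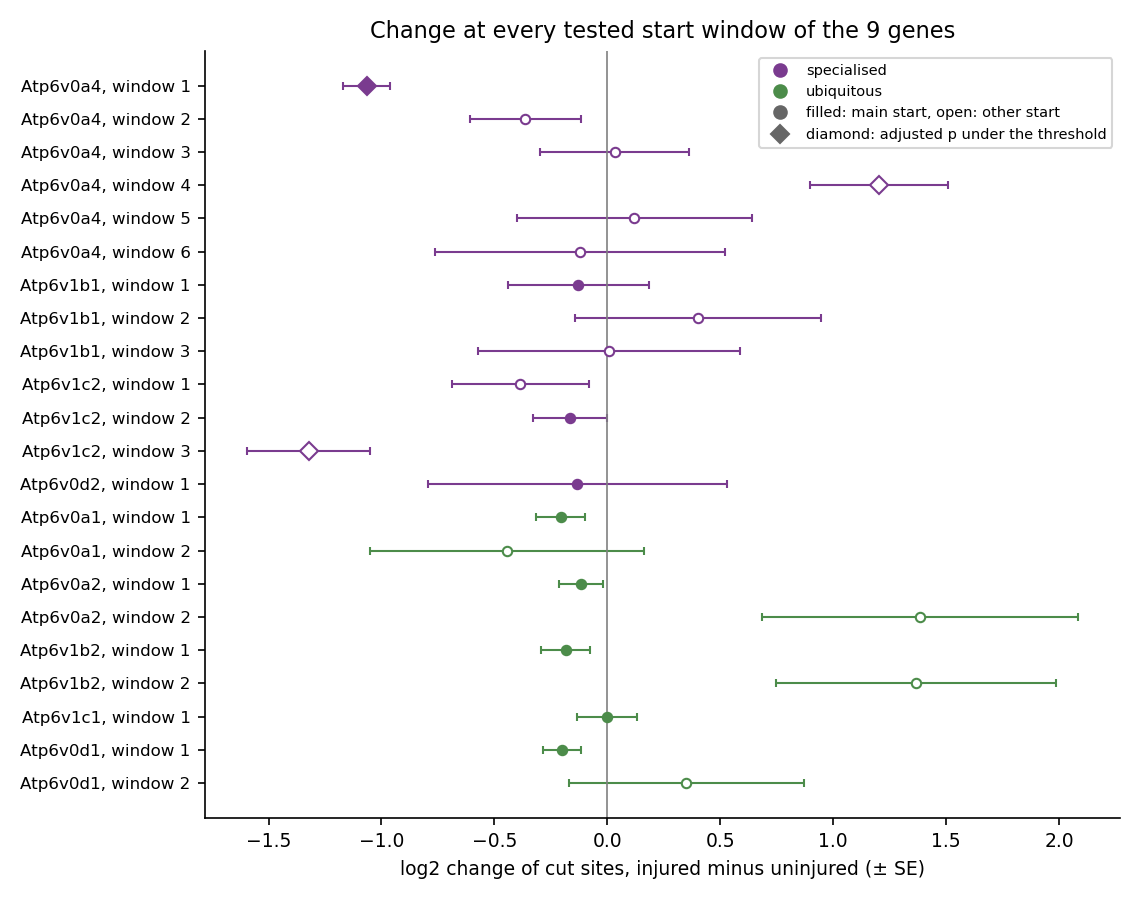
Log2 difference in cut sites, injured minus uninjured, at the 22 tested start windows, with SE bars; filled points are main starts, open points other starts and diamonds windows called in the test across all windows. The called windows are Atp6v0a4 window 1 at -1.07, Atp6v0a4 window 4 at 1.203 and Atp6v1c2 window 3 at -1.32.

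Differences within a gene were read in 500 bp tiles over the gene and 5 kb before it. Open tiles were those with a mean level of 5 or more median tiles, the median being taken over tiles that had any cut site. The 9 genes had 188 open tiles, of which 171 were tested, 96 in specialised and 75 in ubiquitous genes. Of these 6 were called higher and 11 lower, against 4.84% and 1.66% of all 397121 open tiles tested. Atp6v0a4 held 4 of the higher and 5 of the lower tiles among 42 tested, and Atp6v1c2 held 3 lower among 37. Atp6v1b1, Atp6v0d1 and Atp6v0a1 had 1 lower tile each, and Atp6v0a1 and Atp6v1b2 had 1 higher tile each. Atp6v0d2, Atp6v0a2 and Atp6v1c1 had none called. When a library was left out, 0 to 11 tiles of the 9 genes were called higher and 1 to 13 lower.

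At Atp6v0a4 the lower tiles clustered at and near the first start and the higher ones far into the gene. The tile chr6:38124001-38124500, at the first start, had 22.7, 24.5 and 18.8 CPM before and 9.33, 9.26 and 9.56 after injury. The groups were apart, with a log2 difference of -1.23 ± 0.133, and the tile was called under all 14 alternatives. The gene D630045J12Rik also spans this place. The tiles on either side were lower by -1.02 ± 0.207 and -1.32 ± 0.303, and both calls were lost without the second uninjured, the first injured or the second injured library. Farther in, the tiles at chr6:38109501-38110000 and chr6:38111001-38111500 were lower by -1.33 ± 0.316 and -1.48 ± 0.361; both also lie in Tmem213, whose start is 495 bp from the first of them, and neither was called in basal-like cells alone, without any single uninjured library or without the second injured one.

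The higher tiles of Atp6v0a4 began 29835 bp into the gene. At chr6:38094501-38095000, in an intron, the level was 0.71, 0.12 and 0.12 before and 3.17, 2.23 and 0.62 after injury, so the third injured library lay below the first uninjured one, and the log2 difference was 2.88 ± 0.765. At chr6:38083001-38083500, whose sequence with the AP-1 letters is printed above, it was 2.52, 4.04 and 3.13 before and 11.8, 7.68 and 4.14 after injury, a log2 difference of 1.27 ± 0.339. The tiles chr6:38082001-38082500 and chr6:38072001-38072500 were higher by 2.59 ± 0.628 and 2.24 ± 0.567 from levels of 0.203 and 0.155. In all 4 higher tiles the first and second injured libraries were above every uninjured one, and the third was the lowest injured library in 4 of 4. Each of these 4 calls was lost without the third uninjured, the first injured or the second injured library. The call at chr6:38072001-38072500, from 3 to 6 cut sites in an uninjured library, was also lost with the replicate number as a block and that at chr6:38094501-38095000 with total cut sites. Without the first uninjured library 3 of the 4 were lost, as were 3 without the second. The highest tile outside the start windows, chr6:38048001-38048500, had 28.2 ± 6.61 before and 21.5 ± 1.89 after injury; it lies at the far end of the gene, 1254 bp from the start of Svopl, and was not called.

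**Figure D4:**
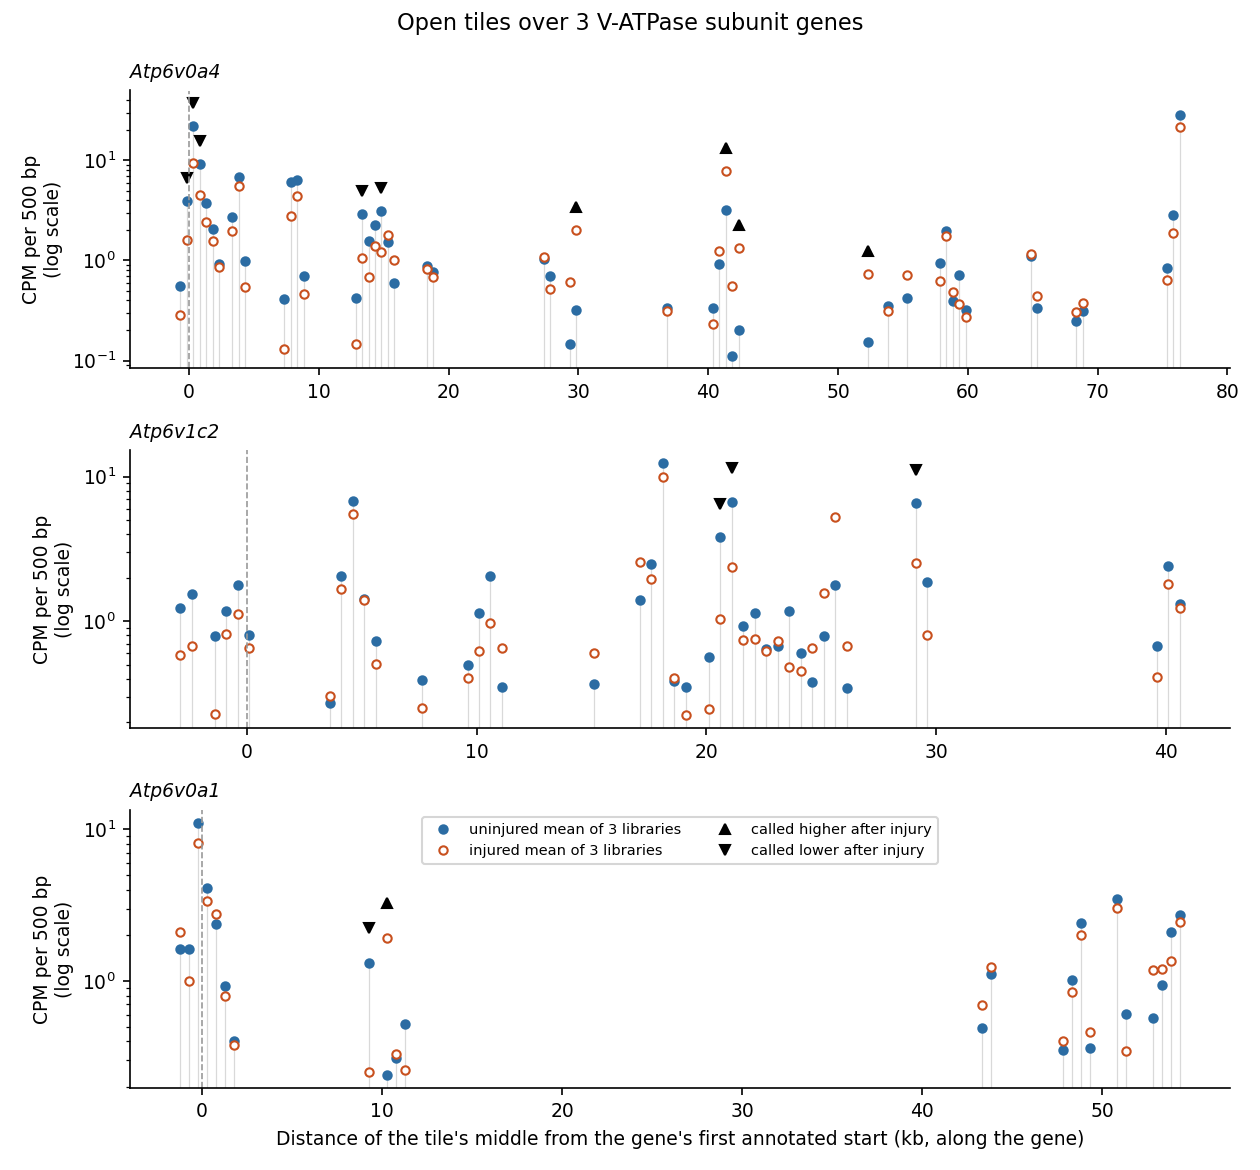
Mean level of the open 500 bp tiles (log axis) along Atp6v0a4, Atp6v1c2 and Atp6v0a1, by distance in kb from the first annotated start (dashed line); triangles mark tiles called after injury. In Atp6v0a4 the called lower tiles lie within 14835 bp of the start and the called higher tiles from 29835 bp on.

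In Atp6v1c2 the called tiles were all lower. Those at chr12:17308001-17308500 and chr12:17308501-17309000, inside start window 3, were lower by -1.49 ± 0.316 and -1.90 ± 0.378. The intronic tile chr12:17300001-17300500, printed above, had 8.58, 6.32 and 4.75 before and 3.34, 2.05 and 2.17 after injury, a log2 difference of -1.36 ± 0.284 with groups apart. Each of these 3 calls was lost without the first or second uninjured or the second injured library, and the second of them also without the first injured one. Between them the tile chr12:17303501-17304000 had 1.42, 3.59 and 0.36 before and 8.00, 5.40 and 2.40 after injury; its difference of 1.54 ± 0.630 was not called, and the groups overlapped. The most open tile outside the starts, chr12:17311001-17311500, stood at 12.5 ± 4.16 before and 9.97 ± 3.99 after injury.

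Atp6v1b1, which was level between groups at its start, had a lower tile in the intron just beyond it. At chr6:83744501-83745000 the level was 3.81, 8.53 and 7.07 before and 2.55, 3.49 and 2.79 after injury, a log2 difference of -1.16 ± 0.291. This was also its most open tile outside the start windows. The first uninjured library lay closest to the injured ones, and the call was lost without the second or the third uninjured or the first or second injured library. Atp6v0d2 had only 6 tested tiles, the most open at 1.73 ± 0.314 before and 1.13 ± 0.163 after injury.

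Atp6v0a1 held a neighbouring pair of tiles that changed in opposite directions. At chr11:101018501-101019000, over an exon, 1.55, 1.50 and 0.90 CPM before stood against 0.22, 0.33 and 0.21 after injury, a log2 difference of -2.40 ± 0.475. At chr11:101019501-101020000, in an intron, 0.39, 0.18 and 0.15 before stood against 2.60, 2.37 and 0.83 after injury, a log2 difference of 3.11 ± 0.582. The groups were apart in both, and the second of them, in which the printed stretch has the AP-1 letters, was called in 12 of 14 alternatives. That call was lost without the second library of either group, and the call of the lower tile without the first or the second library of either group. Counts were low, from 7 to 50 cut sites per library in the first tile and from 5 to 106 in the second.

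The remaining ubiquitous genes had few such tiles. Atp6v1b2 had an intronic tile at chr8:69093001-69093500 with 0.26, 0.15 and 0.18 before and 1.94, 0.93 and 0.54 after injury, a log2 difference of 2.58 ± 0.605; it was called in 1 of 6 fits that left a library out. Atp6v0d1 had a lower tile at its start, chr8:105565501-105566000, at 11.9 ± 0.566 before and 7.86 ± 0.921 after injury, a log2 difference of -0.60 ± 0.148 that stayed called in 5 of 14 alternatives; the call was lost without shared barcodes, without barcodes under 20% in open tiles, with DESeq2, with no filter on low counts and in 5 of 6 fits that left a library out. In Atp6v1c1 the most open tile outside the starts, chr15:38691501-38692000, near the end of the gene, stood at 4.84 ± 2.13 before and 9.40 ± 4.22 after injury, with overlapping groups and no call. In Atp6v0a2 the largest positive difference, 1.06 ± 0.354 at chr5:124629501-124630000, was not called.

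The same windows were read by cell cluster. Clustering 4397 cells on open tiles outside the 9 genes gave 12 clusters, named by the leading marker list under a rule set after the marker levels were seen. Levels by cluster were scaled to the total cut sites of the cells in them, without the library factors used for the levels above. Those factors were 1.05 to 1.09 in uninjured and 0.896 to 0.993 in injured libraries. Levels without them read higher in uninjured and lower in injured libraries than with them. The levels by cluster pool the libraries of a group and carry 95% Poisson intervals for counting error only, and no test. These intervals treat each cut site as a separate event. Both ends of a fragment can fall in the same window, so the intervals are too narrow even for counting error. The uninjured basal-like cells lay mostly in clusters 2 and 5 (horizontal basal cell-like), 6 and 9 (airway-like basal), and the injured ones in clusters 1 and 4 (activated basal-like) and 3 (airway-like basal). Cluster 9 held 150 of its 162 cells from the third uninjured library.

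Among clusters with at least 50 cells of a group, the main start of Atp6v0a4 had its highest pooled levels in uninjured libraries. These were in the sustentacular-like cluster and clusters 2, 5 and 6, and the interval of cluster 10 overlapped theirs. Single libraries reached 25.8 in cluster 2 and 27.1 in cluster 5, against 25.5 in the sustentacular-like cluster. No order is therefore read among these clusters. In uninjured libraries it stood at 22.0 CPM per kb in cluster 2 (20.9 to 23.2), 23.1 in cluster 5 (20.2 to 26.3), 19.8 in cluster 6 (18.3 to 21.4), 12.1 in cluster 9 (10.7 to 13.6), 18.5 in the unnamed cluster 10 (14.0 to 24.0) and 25.4 in the sustentacular-like cluster 11 (22.6 to 28.5). In injured libraries it stood at 7.15 in cluster 1 (6.5995 to 7.73), 5.40 in cluster 4 (4.44 to 6.49) and 9.67 in cluster 3 (8.73 to 10.7). Immature and mature neuron-like cells had 6.63 and 4.59 in uninjured and 5.70 and 4.67 in injured libraries. Cluster 6 was the one basal-like cluster with at least 50 cells in both groups, and there the level was 19.8 before and 16.2 (14.0 to 18.7) after injury; by library it was 14.8, 18.1 and 21.9 in uninjured libraries and 16.3 in the third injured one, the injured library with at least 50 cells. The injured values were thus low in the activated-like clusters and in cluster 3, at 10.0, 9.46 and 9.54 by library in the latter. In cluster 6 the injured value was within the range of the uninjured libraries. Cluster 3 had 22.7 (12.1 to 38.8) in only 22 uninjured cells. Cluster 5 had 9.08 (4.83 to 15.5) in only 38 injured cells.

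**Figure D5:**
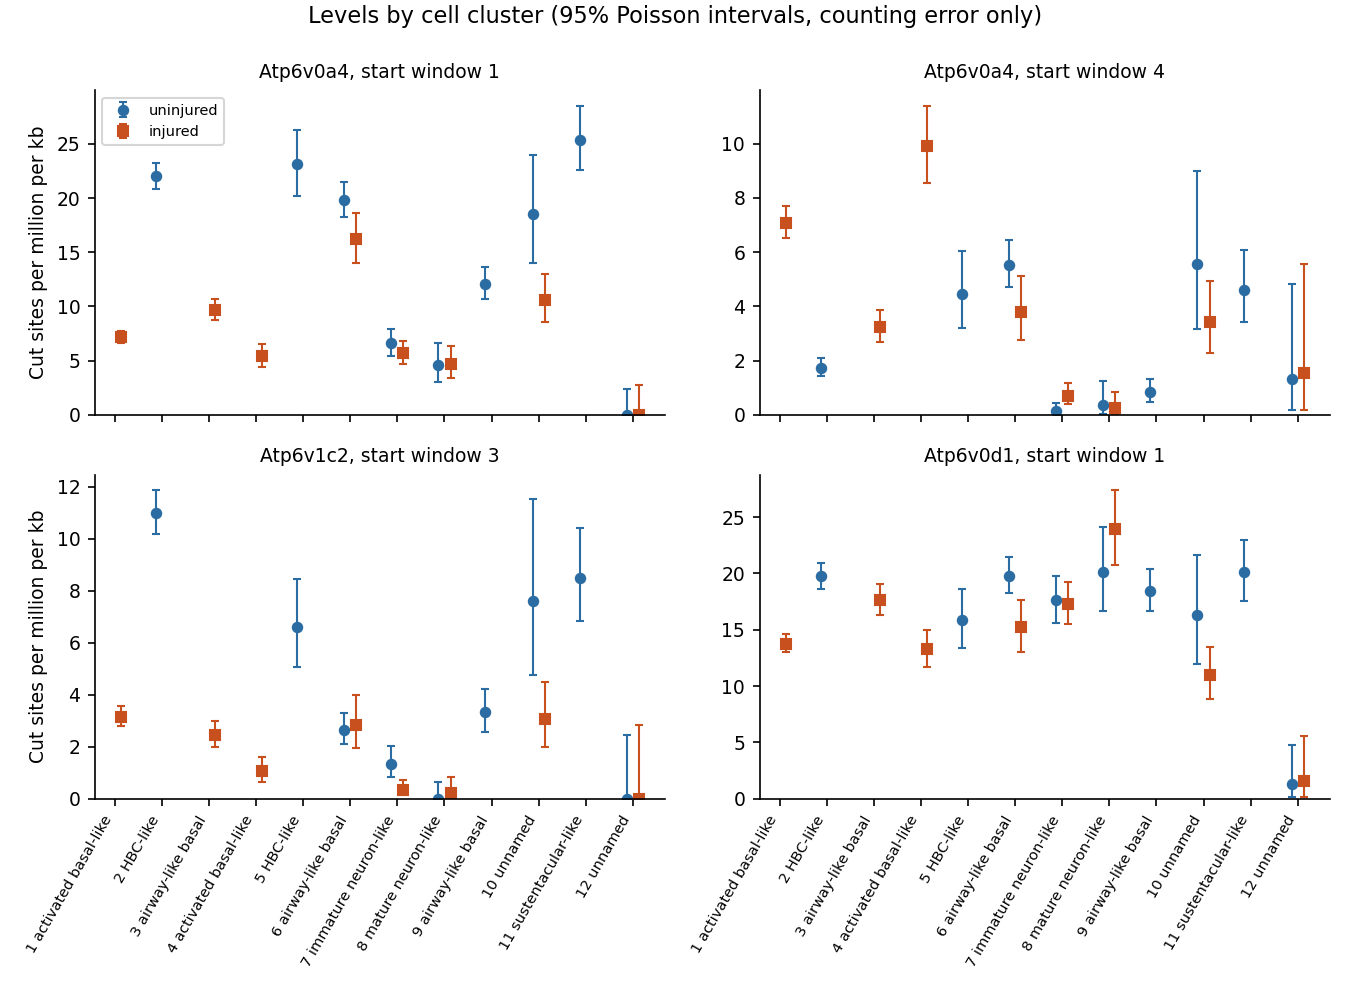
Level in CPM per kb at 4 start windows by cluster, for uninjured and injured cells of clusters with at least 50 cells of that group. Levels are scaled to total cut sites, without the library factors. Bars are 95% Poisson intervals for counting error that treat each cut site as a separate event. Atp6v0a4 window 1 and Atp6v1c2 window 3 are higher in cluster 2 than in clusters 1 and 4, Atp6v0a4 window 4 is the reverse, and Atp6v0d1 spans 13.3 to 19.7 over clusters 1, 2 and 4.

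Window 4 of Atp6v0a4 had the opposite order between clusters 1 and 4 and cluster 2, but not throughout. It stood at 7.09 in cluster 1 (6.53 to 7.68) and 9.90 in cluster 4 (8.56 to 11.4) of injured libraries and at 1.73 in cluster 2 (1.41 to 2.10) of uninjured ones. It was not limited to injured cells, with 4.46 in cluster 5, 5.52 in cluster 6 and 4.61 in the sustentacular-like cluster of uninjured libraries. Injured cells of cluster 3 had a pooled 3.25 (2.70 to 3.88), with 4.39, 3.40 and 2.43 by library, while cluster 5 had 2.67 and 5.36 in the first and second uninjured libraries. In cluster 6 the uninjured libraries had 3.68, 6.70 and 5.56 and the third injured one 3.82. The libraries overlapped, so no order is read among these. Neuron-like cells had 0.122 to 0.697.

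Among clusters with at least 50 cells of a group, window 3 of Atp6v1c2 had its highest pooled level in uninjured cluster 2, at 11.0 (10.2 to 11.9). It stood at 6.59 in cluster 5, 2.66 in cluster 6, 3.33 in cluster 9, 7.62 in cluster 10 and 8.48 (6.84 to 10.4) in the sustentacular-like cluster 11 of uninjured libraries. The intervals of clusters 2 and 11 overlapped. By library cluster 2 went down to 9.29, against 9.16 in cluster 11 of the second uninjured library, so no order is read between them. In injured libraries it stood at 3.16 in cluster 1, 1.06 in cluster 4 and 2.46 in cluster 3. The main start of the same gene ranged from 3.40 to 7.71 among basal-like clusters and was 11.2 in uninjured sustentacular-like cells.

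Atp6v1b1 was also most open in sustentacular-like cells, at 6.56 over all libraries (5.18 to 8.20), with 80 of the 122 cells from the second uninjured library. The pooled 3.32 in cluster 6 and 2.78 in cluster 9 rest on the third libraries. In cluster 6 it stood at 1.17, 1.86 and 4.36 in the uninjured libraries and 4.18 in the third injured one, against 1.18, 1.96 and 0.308 in cluster 2 of the uninjured libraries, so that the first and second libraries had like levels in both clusters. It stood at 0.182 and 0.132 in immature and mature neuron-like cells. Sustentacular-like cells made up 1.34% to 9.11% of the cells of uninjured libraries, and the injured libraries held 1 such cell in all; the part of this difference in the results was not tested. Atp6v0d2 had 4.16 (2.15 to 7.26) in uninjured cells of cluster 10, from 12 cut sites in 65 cells, and 0.489 (0.133 to 1.25) in injured ones, from 4 cut sites in 92 cells. Over all libraries it was at most 0.252 in any other cluster. Cluster 10 was left unnamed, since its leading marker lists, ionocyte at a mean log2 of 0.89 over the rest and globose basal at 0.71, lay closer than the 0.2 the rule required. Its cells had 0.272 of the median depth of their own libraries, and Foxi1 and Foxi2, forkhead genes known from ionocytes and related cells, were among its 10 leading genes. Cluster 12 was also left unnamed: the endothelial list led at 1.06, but the rule names no cluster that is both this shallow, at 0.234 of the median depth of its own libraries, and without a marker of the list among its 10 leading genes. Clusters 2, 5 and 9 also had no such marker, at 1.02, 0.439 and 1.39 of that depth.

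The ubiquitous genes had cut sites in every named cluster. Over all libraries Atp6v0d1 ranged from 13.4 in cluster 4 to 22.4 in mature neuron-like cells, Atp6v1b2 from 8.14 in cluster 5 to 15.7 in mature neuron-like cells and Atp6v1c1 from 6.32 in cluster 5 to 13.5 in mature neuron-like cells. Atp6v0a1 ranged from 3.37 in cluster 4 to 7.41 in mature neuron-like cells, and Atp6v0a2 from 7.05 in sustentacular-like cells to 12.2 in cluster 2. Intervals of mature neuron-like cells overlapped those of sustentacular-like cells for Atp6v0d1, 19.9997 to 24.96 against 17.7 to 23.1, and for Atp6v1b2, 13.8 to 17.8 against 10.2 to 14.3. In the third injured library, which alone held 50 mature neuron-like cells, Atp6v0d1 stood at 20.1 in them, below 22.7 in cluster 6 of the first uninjured library, so no order of the clusters is read for it. The same held for Atp6v0a1, with 5.56 against 7.74 in cluster 5 of that library, and for Atp6v1b2, with 14.8 against 16.2 in its cluster 6.

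Genes with the most similar pattern were sought as a description, over 22 sums of a library and a cluster that share libraries and depth, among 13230 main starts. The main start of Atp6v0a4 was most alike those of Eif4g1 (Pearson r 0.899), a translation initiation factor, Kcnj13 (0.888), an inward rectifier potassium channel, and Ppp6r1 (0.883), a phosphatase subunit. Atp6v1b1 was most alike Cyp2f2 (0.834), a cytochrome of airway epithelium, Stx19 (0.82) and Nectin4 (0.80). Atp6v1c2 was most alike Mtbp (0.846), Mrpl13 (0.845) and Meis2 (0.839). Mtbp and Mrpl13 both lie on chromosome 15, with mean levels of 13.8 and 13.9 CPM. Whether their windows are separate open regions was not tested. For Atp6v0d2 the highest values were lower, with Lrrc24 (0.653), Actl10 (0.631) and Pcmtd2 (0.629).

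Other genes of the pump were read in the fit across all windows. These lists, too, were chosen with earlier results of the data known, so the adjusted p given for their genes, over all windows, are no independent evidence. The list held 27 genes of the V1 and V0 sectors, of accessory and assembly factors and of regulators of assembly, with 41 windows tested. None was called higher and 1 lower (edgeR, adjusted p under 0.05 over all windows), against 2 higher and 6 lower at an unadjusted p under 0.05, and DESeq2 called 0 and 1. Of all 32810 windows tested 3177 were higher and 4085 lower at an unadjusted p under 0.05 (edgeR). That is also the background of the unadjusted counts given below for other lists. The median log2 difference of the list was -0.08. By role 0 of 12 windows of V1 genes, 0 of 8 of V0 genes and 0 of 8 of accessory genes were called by edgeR or by DESeq2, where 3, 1 and 2 had an unadjusted p under 0.05. The called window belongs to Ncoa7, a regulator that binds the pump: its window 4 stood at 6.72 ± 0.673 before and 4.23 ± 0.180 after injury (n = 3 each), a log2 difference of -0.66 ± 0.143 with an adjusted p of 0.0182 by edgeR, lower in 3 of 3 injured libraries. That p ran from 0.000249 to 0.0913 over its alternatives, and the call was lost without the first or second library of either group. The main start of Ncoa7 differed by -0.04 ± 0.094.

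Atp6v1a, which codes for the catalytic A subunit, stood at 20.9 before and 18.4 after injury, a log2 difference of -0.18 ± 0.0742 with an adjusted p of 0.177 (edgeR). Tcirg1, the a subunit of osteoclasts, stood at 2.44 before and 2.74 after injury, with 0.15 ± 0.141 and an adjusted p of 0.579 (edgeR). Both differences missed the threshold.

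Genes of lysosomes and of cell types known for specialised subunits were read in the same test. Among lysosome genes, window 1 of Tfeb, the factor that drives lysosomal genes, differed by -0.35 ± 0.0725 (adjusted p 0.0157, edgeR), going from 14.0 to 10.9 CPM per kb, and window 2 of the same gene by 1.31 ± 0.319 (0.0308), from 0.705 to 1.73. Sqstm1, which codes for an autophagy receptor, was lower by -0.31 ± 0.0745 (adjusted p 0.0288, edgeR), going from 19.1 to 15.3. The groups did not overlap at any of these 3 windows. The calls were lost under 3, 6 and 7 of 16 alternatives in that order, with adjusted p from 0.000653 to 0.0692, from 0.00199 to 0.119 and from 0.000685 to 0.272. Of 10 windows of osteoclast and macrophage genes 3 were called higher and none lower by edgeR, where 2.84% of all windows were called higher. At an unadjusted p under 0.05 there were 4 higher and 0 lower, and DESeq2 called 2 higher and 0 lower. The 3 were Csf1r, the receptor for colony-stimulating factor 1, at 1.91 ± 0.390 (adjusted p 0.0144, edgeR), Cd68 at 0.68 ± 0.170 (0.0409) and Ocstamp at 2.75 ± 0.758 (0.0482). The calls were lost under 4, 6 and 7 alternatives in that order, and DESeq2 gave no adjusted p for Ocstamp. The median log2 difference of the list was 1.06. The 7 immune markers, of which Csf1r is also one, summed to 45.7 to 55.1 in uninjured and 57.3 to 62.4 in injured libraries. The sum is thus not independent of the called Csf1r window, and the part of immune cells in these differences was not tested. Of 22 windows of intercalated cell and ionocyte genes 0 were called by edgeR or DESeq2, with 1 higher and 1 lower at an unadjusted p under 0.05.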

How the data were processed

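Whole-number counts were used: the authors deposited fragment lists with a barcode and a count of read pairs per fragment, made with Cell Ranger 2.0.0 on mm10 per the submitters' processing notes. Both ends of each fragment were taken as cut sites, for barcodes with at least 2000 fragments, which gave 14825320 to 44875242 cut sites per library. These totals limit the precision of a level. Intervals cover counting error only and treat both ends of a fragment as separate events, which makes them too narrow. Start windows and genes came from GENCODE M21 on GRCm38. Cells were clustered with leidenalg 0.10.2 and scikit-learn 1.9.0 in Python 3.11.15 on open tiles outside the 9 genes; doublets were not called, so none were removed. Cut sites were summed per library and 3 uninjured libraries compared with 3 injured ones in edgeR 4.0.16 (R 4.3.3). Its quasi-likelihood test was used with TMM factors, its filter on low counts and Benjamini-Hochberg adjustment. Levels of windows and tiles per library were scaled by the same factors. Levels by cluster were scaled to total cut sites, without these factors. The fit was tested on simulated data.

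Members and gene lists were chosen with earlier results of these data known. Named are the 9 genes with every start window, called genes of the pump, at most 4 called windows with the smallest p in each other list, extreme tiles, and the 3 genes most alike; other called tiles, Sqstm1, window 2 of Tfeb, Atp6v1a, and Tcirg1 were added after their values were seen. Some called lysosome genes are not reported here. Same-numbered libraries were checked for pairing, with correlations of their deviations of 0.0827, 0.191 and 0.255. Pairs of unlike number ran from -0.27 to 0.146. Since 1 of the same-numbered values was under 0.1, the main fit did not pair libraries, but this check does not settle whether they pair. With the replicate number as a block, 1 start window of the 9 genes was called higher and 2 lower, as in the main fit. Alternatives were 2 scalings, DESeq2 1.42.0, no filter, other window and tile definitions, other barcode and cell choices, the replicate number as a block and each library left out; leaving out shared barcodes was added after seeing the data. The planned fit on cells of clusters named as horizontal basal cells was run on all basal-like clusters, since the former held 41 injured cells.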

Additional observations from a re-analysis of the deposited data

How the results depend on the processing

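The log2 differences of the 22 tested member windows moved by less than their own SE in 311 of 344 alternatives and by more in 33. No called value was reversed. Where the SE is large this allows a change of sign, and window 3 of Atp6v1b1 kept its sign in 6 of 14 alternatives. Of 157 alternatives for 10 called windows of other lists 111 kept their call and 46 lost it, with none reversed. Of all windows 932 were called higher and 1010 lower. Higher calls numbered 1441 with the replicate block and 228 to 1413 when a library was left out. Lower calls numbered 10651 with factors from 10 kb bins, 6431 with total cut sites, 1528 with DESeq2, 555 with 500 bp either side of starts, 505 with barcodes at 20% in open tiles, 2463 with the replicate block and 114 to 1342 when a library was left out. The share of calls that were higher was 48.0% and became 5.91% with bins, 13.3% with total cut sites, 58.4% with 500 bp, 62.2% with barcodes at 20% and 59.9% in basal-like cells. Open tiles were called higher at 19235 and lower at 6604; leaving out a library gave 4343 to 33067 higher and 491 to 10636 lower, and lower calls were 10143 in basal-like cells and 10920 with the replicate block. The other pump genes had 0 higher calls, and 1 each with 500 bp and with the replicate block; the 1 lower call became 25 with bins, 13 with total cut sites, 2 with the replicate block and 0 to 2 when a library was left out. With 500 bp either side of starts the log2 ratio of Atp6v0a4 to Atp6v0a1 was 0.72 in uninjured and -0.0949 in injured libraries, that to Atp6v0a2 0.65 in uninjured, that of Atp6v1b1 to Atp6v1b2 -2.97 in injured and that of Atp6v1c2 to Atp6v1c1 -0.74 in uninjured libraries. The cause was not tested. Leaving out a library also leaves fewer samples. Low counts limit Atp6v0d2 and the minor starts.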
